A study of Mus musculus with 358 samples.

Results

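Brain and liver of adult mice of the strain labelled B6 were compared on 2-colour arrays that set each tissue RNA against Universal Mouse Reference RNA (Stratagene), a mixture of mouse cell line RNAs. The samples were taken by a rule of strain, age and tissue that uses no measured value, although earlier results of these data were known. They are the 24 biological samples of B6 brain and B6 liver at 8 weeks and 6 months, of 90 labelled samples in the series. They fall into 8 groups of 3: female brain, male brain, female liver and male liver, each at both ages. All of them share the strain, and the labels name no treatment, genotype or transgene. Each sample was hybridised on 3 to 4 arrays with the dyes exchanged, 95 arrays in all (47 of brain, 48 of liver) out of 358. The labels number the replicates but do not say whether each came from a separate animal or a pool, so the p-values measure the spread between these samples, which may be partly technical. The labels give no question for the series, and the comparison follows from the 2 tissues. Adult B6 kidney (12 samples) is set beside them where it helps to place a gene.

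Adult brain is built of neurons, which signal through vesicle release at synapses, and of glia: astrocytes that clear transmitter, oligodendrocytes that wrap axons in myelin, and microglia. Adult liver is mainly hepatocytes, which secrete most plasma proteins, make bile acids and urea, store and release glucose, and oxidise drugs, with Kupffer cells, sinusoidal endothelium, stellate cells and bile duct cells around them. In whole tissue a lower level can mean fewer cells of a type or less RNA per cell, and these cannot be told apart here.

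A level is log2 of tissue over reference RNA after each array was centred on its median, and a difference is brain minus liver on the log2 scale ± its standard error, with 12 samples a side and equal weight on both ages and both sexes. A level near 0 means the reference level, which is also where a probe without signal of its own would lie, since the values carry no background measure. The labels do not state the direction of the deposited ratio. Arrays of a sample with opposite dyes correlated positively (median r = 0.771 over 93 pairs, lowest 0.607), so the ratio had been turned for the dye, and it was inverted because neuron structure genes and plasma proteins then lie high in their own tissue. The direction of those 2 lists is therefore no test. The median ratio of an array lay between 0.492 and 1.70 before centring, and 10088 to 10708 probes had a value on each array. In 5 of the 6 brain samples and 2 of the 6 liver samples at 8 weeks, some arrays carried the dye pattern opposite to their label. These were 20 brain and 7 liver arrays, against 0 at 6 months. The pattern was the mean of Cy5 minus Cy3 arrays by their labels at 6 months, so that 0 is no test of those labels. At each age the samples also fell into sets, X and Y, that a few probes (7 at 8 weeks, 32 at 6 months) set apart in every tissue at once. Set Y held the third replicates of each tissue and sex and the second male liver, 4 brain and 6 liver samples over both ages. The second male liver at 6 months was placed there by only 21 of the 32 probes. Each other brain and liver sample of set Y at 6 months was placed by 31 or 32. One brain sample, 8-week female 2, stood apart in liver-higher genes: 26 of 95 genes at least 4 log2 units higher in liver lay more than 1 unit above the median of the other 11 brains, against 0 to 2 of 95 in each of those. Leaving it out moved none of the 30 differences named below between brain and liver by as much as 1 unit and ended none of those calls.

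The limma fit called 6947 of 10196 probes between brain and liver at an adjusted p below 0.05 (Benjamini-Hochberg), which is 68.1% of those tested, with 3023 higher in brain (29.6%) and 3924 higher in liver (38.5%). Over 6377 genes, 1 probe each, 2160 were called higher in brain (33.9%) and 2272 higher in liver (35.6%), with a median difference of -0.05. The sides differed in size. Among genes at least 1 log2 unit apart, 964 were higher in brain and 597 in liver, while at 5 units or more there were 36 in brain and 53 in liver. Without centring of the arrays the probe calls split 3248 to 2386 in favour of brain. The split also turned on Cy3 arrays alone (2650 to 2050) and within set Y (2162 to 1429), and did not turn when arrays were scaled to one spread (2994 to 3938) or quantile-normalized (2855 to 3733). For 1439 genes (22.6%) no brain sample overlapped any liver sample.

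The genes with the largest differences on the brain side are best known from neurons and their vesicles. Rab6b, a Rab protein of Golgi transport found in neurons, ran from 4.24 to 4.99 (median 4.65) in brain and from -3.08 to -1.55 (median -2.42) in liver, a difference of 7.04 ± 0.13 (limma adjusted p = 2.83e-19). The lowest brain sample lay over 5 units above the highest liver sample, although 2 other probes of Rab6b gave 1.23 ± 0.15 and 3.35 ± 0.30. Cpe, the carboxypeptidase that trims peptide hormone precursors in dense-core granules, ran from 2.69 to 3.69 (median 3.37) in brain and from -3.91 to -3.04 (median -3.46) in liver, which is 107-fold. Pfn2, the actin-binding profilin of neurons, differed by 6.50 ± 0.11. Synapsin 2, encoded by Syn2, coats synaptic vesicles and ran from 5.18 to 6.78 (median 6.15) in brain against -0.11 to 0.23 (median 0.01) in liver. Rph3a, a Rab3 effector on the same vesicles, ran from 5.24 to 6.82 (median 6.06) against -0.12 to 0.21 (median 0.08). Both liver ranges lie at the reference level, so the liver level of these genes may be lower than shown.

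Genes of axonal transport, endosomes and synapses were among the rest. Fez1, a kinesin adaptor for axonal transport, differed by 6.09 ± 0.11, and the endosomal neuronal proteins Nsg2 and Nsg1 by 5.82 ± 0.17 and 5.51 ± 0.13. Crmp1, which relays semaphorin signals in growth cones, ran from 4.48 to 6.09 (median 5.57) in brain and from -0.29 to 0.03 (median -0.16) in liver, and the pentraxin Nptx1, which clusters glutamate receptors, differed by 5.72 ± 0.15. Gnb5, the G protein beta subunit that pairs with RGS proteins in neurons, differed by 5.65 ± 0.15, and Tagln3, a neuronal transgelin, by 5.52 ± 0.13. Pianp and Tceal3 completed the list at 5.72 ± 0.14 and 5.86 ± 0.08. All 15 lay above kidney too, by 5.24 in the median. Of the 15, only Chn1, a Rac GTPase-activating protein of neurons, overlapped between tissues: it ran from -0.28 to 5.66 (median 5.01) in brain, and the 2 brain samples of set Y at 6 months gave -0.28 and -0.21 while the 4 of set X lay between 4.53 and 5.16. Its difference of 5.50 ± 0.60 was 6.63 within set X alone and 3.58 within set Y alone (limma adjusted p = 0.0014).

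**Figure D1:**
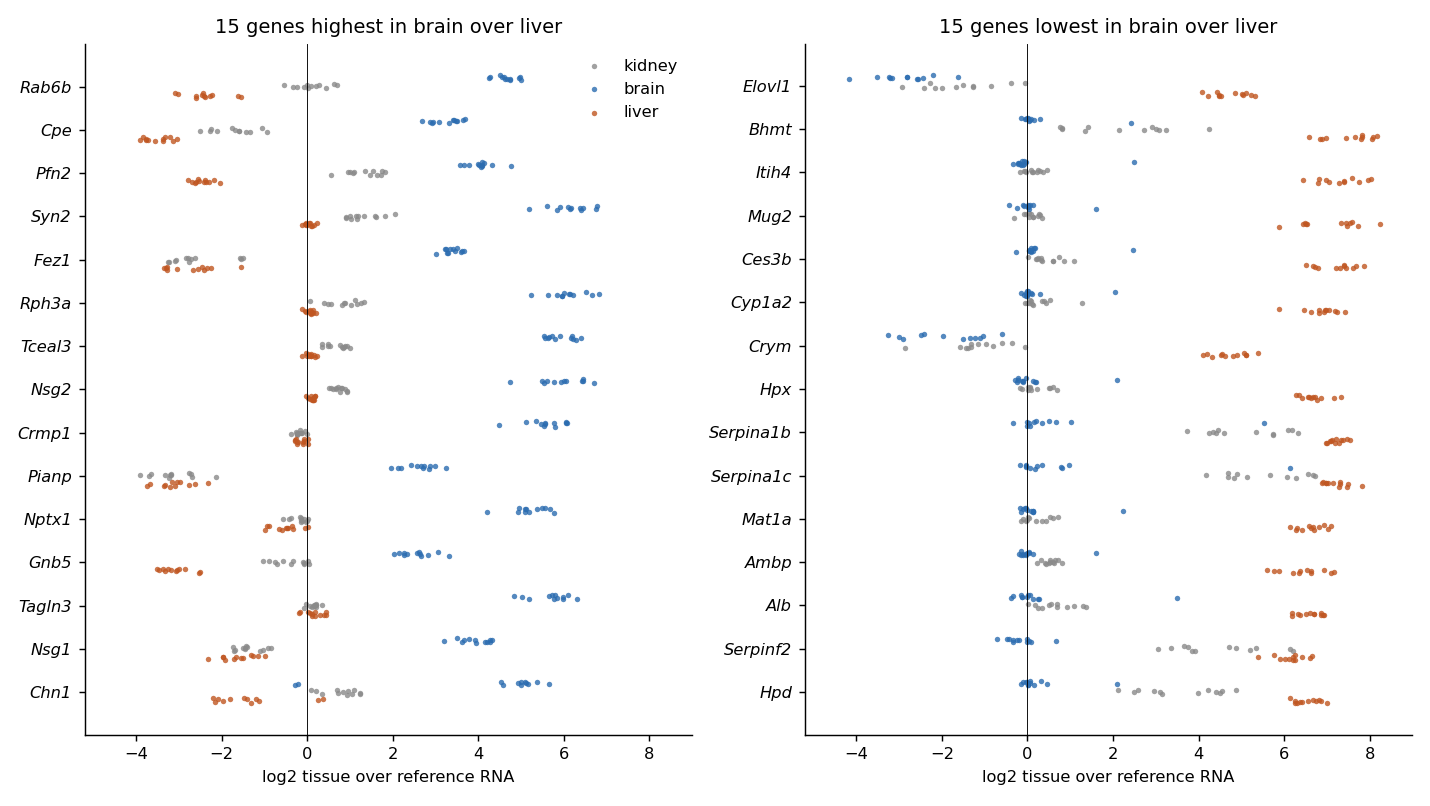
Level of the 15 genes highest and the 15 lowest in brain over liver, as log2 tissue over reference RNA, in each of 12 brain (blue), 12 liver (orange) and 12 kidney samples (grey) of adult B6. Brain and liver points stay apart for every gene but Chn1, where 2 brain samples lie at -0.28 and -0.21, and 1 brain sample stands to the right of the others for most liver genes.

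The neuronal lists were brain-higher in most of their measured members. Of 20 measured neuron structure genes, 17 were called higher in brain and 0 in liver, with a median of 2.72 against -0.05 over all genes. As the share to set beside each list count, 2160 of all 6377 genes were called higher in brain and 2272 in liver. The dendrite protein Map2 ran from 4.52 to 6.17 (median 4.92) in brain and from -0.10 to 0.24 (median 0.16) in liver. The neurofilaments were spread: Nefm differed by 4.17 ± 0.18 and Nefl by 2.88 ± 0.18, while the heavy chain Nefh lay at -0.48 to 0.27 in brain and -0.39 to 0.14 in liver and was not called (difference 0.05 ± 0.08). Gap43, of growth cones, differed by 3.92 ± 0.18. The axonal tau gene Mapt differed by 3.26 ± 0.51, and like Chn1 its brain samples of set Y at 6 months lay at the reference level (-0.16 and -0.08) where those of set X ran from 4.14 to 5.02. The RNA-binding protein Elavl4 and the adhesion molecule Ncam1 were not called, at -0.12 ± 0.09 and 0.02 ± 0.07.

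Vesicle release showed the largest list median on the brain side. Among 18 measured genes of the synaptic vesicle and its fusion, 15 were higher in brain and 1 in liver, with a median of 3.73. Rab3a, the vesicle GTPase, differed by 5.35 ± 0.08, complexin 2 (Cplx2), which clamps the fusion machinery, by 5.25 ± 0.10, and the membrane SNARE Stx1a by 5.15 ± 0.33. The vesicle marker synaptophysin (Syp) ran from 1.62 to 2.94 (median 2.25) in brain and from -3.57 to -1.86 (median -2.52) in liver. Syt11, a synaptotagmin that lacks calcium binding, went against the rest at -2.29 ± 0.16, from -0.16 to 0.26 (median 0.06) in brain to 1.05 to 3.57 (median 2.47) in liver, with no overlap. Napb, the brain form of a SNARE disassembly protein, differed by 0.27 ± 0.05 on the probe used and by 4.35 ± 0.13 on another, so its size is unsettled.

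Receptors and channels followed with smaller medians. In the glutamate and postsynaptic list, 10 of 12 measured genes were higher in brain and 1 in liver, with a median of 1.75. Camk2n2, an inhibitor of the synaptic kinase CaMKII, differed by 4.96 ± 0.12, the AMPA receptor subunit Gria1 by 4.75 ± 0.10 and the kinase subunit Camk2b by 4.18 ± 0.38. Gria1 ran from 3.73 to 5.44 (median 4.85) in brain and from -0.21 to 0.20 (median -0.03) in liver. Grin2c, an NMDA receptor subunit of cerebellum, was the member called the other way, at -0.16 ± 0.05, a difference close to the median of all genes. For inhibitory signalling 4 of 5 genes were higher in brain, led by the GABA-A subunit Gabrb2 at 2.34 ± 0.11. The vesicular GABA transporter Slc32a1 differed by 1.29 ± 0.09. The scaffold Gphn, also used in liver for molybdenum cofactor synthesis, was not called on the probe used. A different Gphn probe was called higher in brain, at 0.34 ± 0.15 (limma adjusted p = 0.0477). Of 9 voltage-gated channel genes 7 were higher in brain, with Kcnip4 at 4.51 ± 0.11, Kcnc1 at 3.39 ± 0.27 and Kcnab2 at 3.03 ± 0.16. The calcium channel genes Cacna1g and Cacna2d1 were not called on the probes used. Another Cacna2d1 probe was called higher in brain, at 1.17 ± 0.17.

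Neuropeptides were divided. Of 13 measured genes, 8 were higher in brain and 2 in liver. The processing and granule proteins Cpe, Pcsk1n and Chgb led, the last at 4.82 ± 0.33 and Pcsk1n, a convertase inhibitor, at 5.39 ± 0.11. Tac1, the substance P precursor, ran from 1.98 to 4.75 (median 3.50) in brain and from -0.34 to 0.13 (median -0.03) in liver. Pomc and Avp, made in small nuclei, were the members called higher in liver. Pomc ran from -2.27 to -0.60 in brain and -1.43 to 0.16 in liver and differed by -0.83 ± 0.20, and Avp, the vasopressin precursor, by -0.31 ± 0.04. Avp ran from -0.18 to 0.02 in brain and from 0.05 to 0.32 in liver. Both ranges lie at the reference level, so its probe may lack signal in both tissues. Somatostatin (Sst) differed by 3.06 ± 0.49, with brain samples from 0.14 to 5.23. At 8 weeks its 2 brain samples of set Y lay at 5.12 and 5.23 and its 4 of set X between 0.13 and 3.59.

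Glial lists moved less evenly. Among genes of myelin and its oligodendrocytes, 7 of 9 measured were called higher in brain and 1 in liver. The myelin enzyme Cnp ran from 3.54 to 4.92 (median 3.96) in brain and from -0.30 to 0.89 (median 0.43) in liver, the receptor Gpr37 differed by 3.55 ± 0.10 and the lineage factor Sox10 by 3.30 ± 0.12. Myelin basic protein (Mbp) differed by only 1.02 ± 0.37 and overlapped, from -0.49 to 3.76 in brain to -1.34 to 0.58 in liver. Transferrin (Trf), made by both oligodendrocytes and hepatocytes, was higher in liver, at -1.81 ± 0.27. In the astrocyte list 4 of 10 genes were higher in brain and 2 in liver: Sparcl1, a matrix protein of synapse formation, at 4.86 ± 0.14, the calcium-binding S100b at 2.37 ± 0.18 and the connexin Gjb6 at 1.87 ± 0.11, against the chaperone Clu at -1.13 ± 0.25. The glutamate transporter Slc1a2 lay from -0.20 to 0.76 in brain and 0.31 to 0.78 in liver and was not called, and neither was glutamine synthetase (Glul), which both tissues make, at -1.18 ± 0.56. With the sample sets as a block, Glul was called higher in liver, at -1.37 (limma adjusted p = 1.67e-06). Without the block, another Glul probe was called higher in liver too, at -0.70 ± 0.15. Only 1 of 8 microglial genes was called, the protease Ctss at 1.14 ± 0.24, against 69.5% of all genes called. The complement genes C1qa, C1qb and C1qc, made by microglia and by Kupffer cells, differed by -0.29 ± 0.15, -0.16 ± 0.20 and -0.08 ± 0.13 and were not called.

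Neural transcription factors had 7 of 13 genes called higher in brain and 1 in liver, against 2160 and 2272 of all 6377 genes. Nr4a2, needed for dopamine neurons, differed by 2.86 ± 0.20, Hivep2 by 1.74 ± 0.08 and Zbtb18 by 1.30 ± 0.19. Zic1, a factor of cerebellar granule cells, went the other way at -0.84 ± 0.09, from -0.28 to 0.12 in brain to -0.35 to 2.62 in liver, and its liver values differed by sex, as given below. All 11 brain endothelium genes were called, 8 higher in brain and 3 in liver. Itm2a, a membrane protein of brain vessels, differed by 4.28 ± 0.26, the amino acid transporter Slc7a5 by 2.74 ± 0.18 and the glucose transporter Slc2a1 by 1.66 ± 0.14, while the efflux pump Abcg2, which also serves bile canaliculi, was higher in liver, at -1.36 ± 0.18.

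Of 5 choroid plexus genes, 1 was called higher in brain, Kl at 1.07 ± 0.28, and 2 in liver, the water channel Aqp1 at -1.42 ± 0.12 and Ttr. Over all 6377 genes, 2160 were called higher in brain and 2272 in liver. Transthyretin (Ttr), secreted by choroid plexus and by hepatocytes, ran from 1.07 to 7.03 (median 4.98) in brain and from 5.65 to 6.57 (median 6.12) in liver, and the difference of -1.36 ± 0.56 (limma adjusted p = 0.0389) was small beside the spread over brains. Folr1, another choroid plexus gene, lay from -0.84 to 0.57 in brain, and neither it nor Igf2 was called.

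The genes with the largest differences on the liver side include plasma proteins and enzymes of hepatocytes. Bhmt, which remakes methionine from betaine, ran from 6.58 to 8.17 (median 7.72) in liver and from -0.15 to 2.43 (median 0.03) in brain, a difference of -7.27 ± 0.21 or 154-fold. The plasma protein Itih4 ran from 6.44 to 8.03 (median 7.34) in liver and from -0.33 to 2.50 (median -0.14) in brain. Serum albumin (Alb) ran from 6.18 to 6.92 (median 6.65) in liver and from -0.38 to 3.49 (median 0.01) in brain, and Cyp1a2, a caffeine-oxidising P450, from 5.89 to 7.43 (median 6.95) and from -0.15 to 2.06 (median 0.01). In each of the 4 the highest brain value came from 8-week female 2, and the other brains lay at the reference level. Without that sample the difference was -6.63 for Alb, -7.46 for Bhmt and -6.95 for the protease inhibitor Serpina1c, which was -6.44 with it and reached 6.13 in that brain. Its neighbour Serpina1b differed by -6.54 ± 0.44 with that sample and -7.00 without it, and the 2 genes are near-identical copies, so their probes may read each other. The protease inhibitor Mug2 differed by -7.02 ± 0.17 and the carboxylesterase Ces3b by -6.96 ± 0.21. The haem carrier Hpx lay at -6.59 ± 0.20, the methionine enzyme Mat1a at -6.44 ± 0.19, the alpha-1-microglobulin precursor Ambp at -6.35 ± 0.17, the plasmin inhibitor Serpinf2 at -6.32 ± 0.14 and the tyrosine-degrading enzyme Hpd at -6.29 ± 0.19.

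Elovl1, a fatty acid elongase, had the largest difference of all called genes on the liver side, -7.60 ± 0.20, and was well below the reference in brain, from -4.16 to -1.62 (median -2.82). Crym, a thyroid hormone binding protein, followed at -6.63 ± 0.22. In liver these 2 probes gave nearly the same value in every sample: Elovl1 ran from 4.09 to 5.33 and Crym from 4.12 to 5.39, with gaps of 0.003 to 0.16 and r = 0.975 over 12 liver samples, while in brain the gaps were 0.028 to 0.317 at 8 weeks and 0.314 to 3.12 at 6 months. Whether the probes measure separate transcripts was not tested.

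The promoters of liver genes show what such genes can share in sequence, and a few are printed because these genes lie together on the liver side. RefSeq promoters (GRCm38.p6, 250 bases before to 50 after each start) matched 5056 of the 6377 genes. The letters GTTAATNAT, part of the site of the hepatocyte factor HNF1, stood on either strand of 10 of 249 promoters of genes at least 2 log2 units higher in liver (4.02%), in 1 of 297 of those at least 2 units higher in brain (0.337%) and in 34 of all 5056 (0.672%). The 9 that lie wholly before the start are given here on the strand that reads GTTAATNAT, 5′ to 3′, with those bases in capitals. In Hgfac the letters cross the start.
Alb: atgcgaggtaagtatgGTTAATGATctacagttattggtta
Hc: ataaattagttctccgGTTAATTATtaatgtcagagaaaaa
Pzp: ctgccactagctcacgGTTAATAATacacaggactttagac
G6pc: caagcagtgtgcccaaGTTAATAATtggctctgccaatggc
C4bp: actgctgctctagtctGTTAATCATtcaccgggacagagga
Tm4sf4: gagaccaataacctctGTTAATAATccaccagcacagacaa
Habp2: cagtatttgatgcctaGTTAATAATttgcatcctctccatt
Nr5a2: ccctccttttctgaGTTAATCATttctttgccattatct
Sult1d1: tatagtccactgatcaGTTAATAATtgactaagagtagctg
They lie at chr5:90460822-90460862 on the + strand for Alb, chr2:35061465-35061505 on the + strand for Hc, chr6:128526898-128526938 on the + strand for Pzp, chr11:101367479-101367519 on the + strand for G6pc and chr1:130661658-130661698 on the - strand for C4bp. The others lie at chr3:57425282-57425322 on the - strand for Tm4sf4, chr19:56287830-56287870 on the + strand for Habp2, chr1:136960660-136960698 on the - strand for Nr5a2 and chr5:87569061-87569101 on the - strand for Sult1d1. The distance from the start ran from 32 bases in Alb to 236 in Nr5a2. Their differences ran from -6.34 for Alb, -6.03 for the complement C5 gene Hc and -5.99 for the protease inhibitor Pzp to -2.04 for the sulfotransferase Sult1d1.

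The letters CAAAGTCCA, a core of the HNF4 site, stood in 6 of the 249 liver promoters (2.41%), in 0 of the 297 brain promoters and in 32 of all 5056 (0.633%). The 4 printed here lie before the start and stand on the gene's own strand. The rest are not shown.
Cyp3a11: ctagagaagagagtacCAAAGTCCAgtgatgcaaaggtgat
Cyp2c69: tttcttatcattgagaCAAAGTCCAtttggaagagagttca
Cyp2c68: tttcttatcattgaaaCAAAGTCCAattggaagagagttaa
Aspdh: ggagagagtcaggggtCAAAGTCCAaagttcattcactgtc
They lie at chr5:145879939-145879979 on the - strand, chr19:39886820-39886860 on the - strand, chr19:39741154-39741194 on the - strand and chr7:44465367-44465407 on the + strand. The windows of Cyp2c69 and its relative Cyp2c68 are near-copies, so they count as little more than 1 case. The TATA letters TATAAA, on the gene's strand, stood in 37 of the 249 liver promoters (14.9%), 20 of the 297 brain promoters (6.73%) and 388 of all (7.67%). Among the named liver genes Cyp1a2 and Ces3b held them, 29 and 30 bases before the start.
Cyp1a2: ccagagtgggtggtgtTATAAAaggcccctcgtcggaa
Ces3b: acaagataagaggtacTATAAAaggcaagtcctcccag
These lie at chr9:57683663-57683700 on the - strand and chr8:105083709-105083746 on the + strand. On the brain side TTCAGCACC, part of the element bound by the neuron-restrictive repressor REST, stood in 1 of 297 promoters (0.337%) and in 18 of all (0.356%), and that gene was Nsg2.
Nsg2: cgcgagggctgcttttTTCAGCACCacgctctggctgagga
It lies at chr11:32000483-32000523 on the + strand, 201 bases before the start. The cyclic AMP element TGACGTCA stood in 9 of 297 brain promoters (3.03%) and in 3.03% of all, and TTGCGCAA, of the C/EBP factors, in 1 of 249 liver promoters and in 21 of all. A match is a description of these windows and not evidence of binding.

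Secreted proteins of the blood were higher in liver almost without exception. Of 21 measured plasma proteins 20 were called higher in liver, with a median of -2.86, and Mug1 was not called, at 0.04 ± 0.07, although its close relative Mug2 was among the genes named above. All 15 coagulation genes and all 12 complement genes were higher in liver, with medians of -3.22 and -4.36. Plasminogen (Plg) ran from 5.57 to 6.71 (median 6.48) in liver and from -0.38 to 1.33 (median 0.07) in brain, and the fibrinogen chain Fgg was 64.1-fold higher in liver, while the partner chain Fgb differed by -1.41 ± 0.14 and overlapped. The smallest differences of the 2 lists were those of Tfpi, a coagulation inhibitor made by endothelium, at -0.18 ± 0.07, and C8a, a chain of the membrane attack complex, at -0.14 ± 0.05. Among the complement genes Hc led at -6.03 ± 0.14, with C9 at -5.35 ± 0.17 and the factor I gene Cfi at -4.70 ± 0.13, and C1 inhibitor (Serping1), which brain vessels also make, lay at -4.47 ± 0.16.

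Of 13 apolipoprotein and lipoprotein genes, 11 were higher in liver and 2 in brain. Apoa1, the main protein of HDL, ran from 5.65 to 6.79 (median 6.04) in liver and from -0.26 to 2.19 (median -0.04) in brain, and Apoh and Apoc4 differed by -5.57 ± 0.15 and -5.22 ± 0.13. Apoe, made by hepatocytes and astrocytes, was higher in liver, at -1.21 ± 0.19, and overlapped. Apod, made by glia, was higher in brain by 4.96 ± 0.11. Apob, the protein of VLDL made by hepatocytes, was also higher on its probe in brain, by 2.83 ± 0.19, from 1.64 to 3.38 (median 2.68) in brain to -0.73 to 0.37 (median -0.21) in liver, against the textbook site of the gene.

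Enzymes of nitrogen and amino acid handling stood next. In the urea and amino acid list 18 of 20 measured genes were higher in liver and 0 in brain, with a median of -3.09. The urea cycle entry enzyme Cps1 ran from 4.98 to 6.58 (median 5.99) in liver and from -0.23 to 0.93 (median -0.04) in brain, and Otc, the next step, differed by -4.78 ± 0.09. The histidine-degrading Hal differed by -5.13 ± 0.14. Got1, the aspartate transaminase both tissues use, was not called, at 0.27 ± 0.16, and Gnmt, a methyl transfer enzyme of liver, was not called either, with levels of 0.53 to 1.64 in liver.

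Of 17 P450 genes 15 were higher in liver, with a median of -2.53. Besides Cyp1a2, Cyp2d9 lay at -5.54 ± 0.09 and Cyp2f2 at -5.44 ± 0.10. Cyp51, of sterol synthesis, and Cyp1b1 were not called, at 0.09 ± 0.06 and 0.31 ± 0.18. Among conjugating and detoxifying enzymes 23 of 28 were higher in liver and 3 in brain. Ces1d, a carboxylesterase, differed by -5.38 ± 0.15 and the alcohol dehydrogenase Adh1 by -3.31 ± 0.20. Those higher in brain were the glutathione transferases Gsta3 at 3.42 ± 0.21 and Gstm5 at 2.47 ± 0.16, and the epoxide hydrolase Ephx2 at 0.47 ± 0.08. Gsta3 ran from 1.54 to 3.83 (median 2.04) in brain and from -1.64 to -0.27 (median -0.99) in liver, with no overlap. The members of these transferase families are close in sequence, so a probe may read a relative. All 12 bile acid genes were higher in liver, with the conjugation ligase Slc27a5 at -5.82 ± 0.14 and Cyp7a1, the rate-limiting enzyme of the classic path, at -1.20 ± 0.10.

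Fuel metabolism was liver-higher with some exceptions. Of 12 genes of glucose output and glycogen 8 were higher in liver and 1 in brain. Pck1, which commits carbon to glucose, ran from 5.12 to 6.88 (median 5.96) in liver and from -0.25 to 1.33 (median 0.10) in brain, and the glucose-6-phosphatase gene G6pc differed by -4.57 ± 0.21. The member higher in brain was the pyruvate kinase gene Pklr, a liver and red cell form, at 0.21 ± 0.07. In fatty acid oxidation 14 of 16 genes were higher in liver, led by the fatty acid carrier Fabp1 at -5.50 ± 0.22 and the thiolase Acaa2 at -4.79 ± 0.15. Of 16 peroxisomal genes 13 were higher in liver, with catalase (Cat) at -5.12 ± 0.13. The biogenesis factors Pex19 and Pex11a were not called, although another Pex11a probe gave -2.60 ± 0.13. Cholesterol synthesis was liver-higher for 6 of 9 genes, led by Ebp at -2.94 ± 0.15, with the regulator Srebf2 higher in brain by 0.32 ± 0.11. Of 13 iron and haem genes 10 were higher in liver, with Hpx and the haem synthesis enzyme Cpox (-5.94 ± 0.09) far from the rest.

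Liver regulators followed the same direction. Of 14 liver transcription factors 11 were called higher in liver, with a median of -1.65. Hnf4a, the master regulator of hepatocytes, ran from 3.29 to 4.79 (median 4.32) in liver and from -0.11 to 0.30 (median 0.10) in brain, and the sterol sensor Nr1h3 differed by -4.14 ± 0.13 and its partner Rxra by -2.28 ± 0.09. Thrb, Atf5 and Esr1 were not called, at -0.14 ± 0.11, 0.06 ± 0.06 and 0.15 ± 0.08, although another Esr1 probe was called higher in brain, at 0.30 ± 0.05.

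Lists of other liver cells lay partly on the same side, where 2272 of all 6377 genes were called higher in liver and 2160 in brain. Of 26 Kupffer and leukocyte genes 18 were higher in liver and 2 in brain. The Kupffer product Cd5l ran from 3.13 to 5.99 (median 4.39) in liver and from -0.46 to -0.06 (median -0.29) in brain, the lectin Clec4f differed by -2.09 ± 0.15 and the lysozyme Lyz2 by -2.19 ± 0.16. Cd74 and Laptm5, of antigen-presenting and blood cells, were higher in brain by 1.70 ± 0.19 and 1.36 ± 0.13, although the class II genes that Cd74 serves, H2-Aa and H2-Eb1, differed by -1.95 ± 0.16 and -1.68 ± 0.15. All 7 sinusoidal endothelium genes were higher in liver, with the mannose receptor Mrc1 at -1.90 ± 0.18. Stellate cell and matrix genes split, 8 of 15 higher in brain and 4 in liver, with the vessel matrix genes Mgp and Sparc at 2.33 ± 0.12 and 2.31 ± 0.19 against desmin (Des) at -0.68 ± 0.14. Of 7 bile duct genes 3 were called higher in brain and 4 in liver. Sox9, also of astrocytes, lay at 1.90 ± 0.18, and on the liver side the keratin Krt23 lay at -0.67 ± 0.09, the claudins Cldn7 and Cldn4 at -0.59 ± 0.12 and -0.28 ± 0.11, and Epcam at -0.21 ± 0.08.

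**Figure D2:**
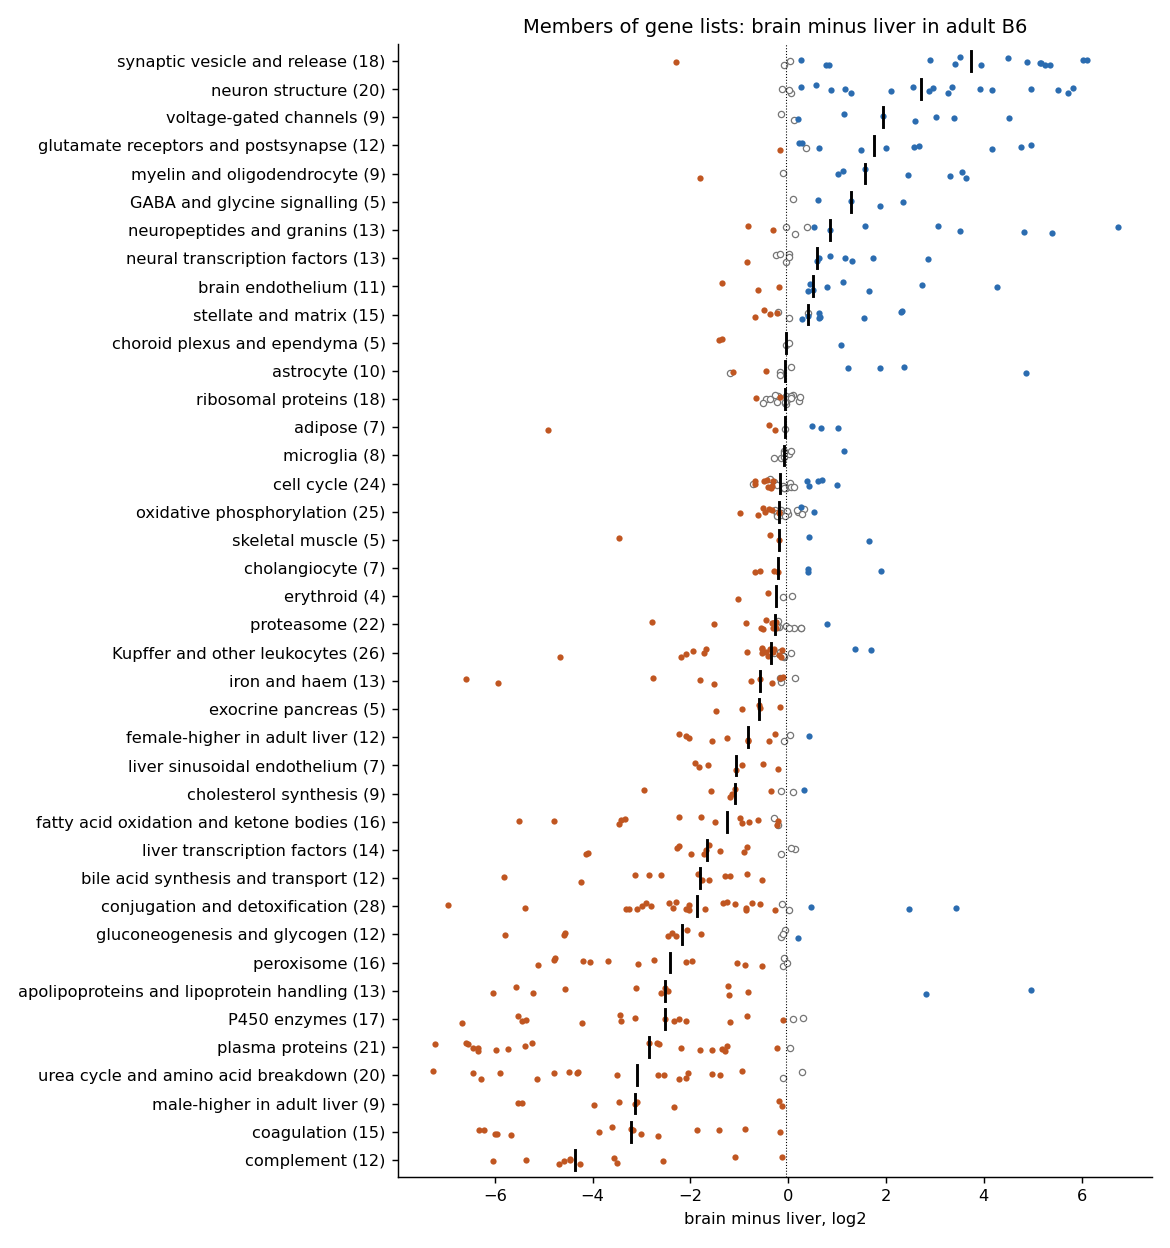
Brain minus liver on the log2 scale for each measured member of 40 gene lists, with the number measured in parentheses; filled points were called higher in brain (blue) or liver (orange), open points were not called, bars are list medians and the dotted line is the median of all genes, -0.05. The medians run from 3.73 for vesicle release to -4.36 for complement, and members against their list, such as Syt11 and Apob, stand apart.

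Machinery that all cells share had smaller differences. Beside the counts here stand 2160 genes higher in brain and 2272 in liver of all 6377. Of 18 ribosomal protein genes 2 were called, Rpl28 at -0.65 ± 0.17 and Rpl13 at -0.17 ± 0.07, both higher in liver, and the list median was -0.06. Of 25 oxidative phosphorylation genes 2 were higher in brain and 8 in liver, with no member beyond 1 unit: the ATP synthase gene Atp5a1 differed by -0.98 ± 0.21 and Cox8a by 0.53 ± 0.14. In the proteasome list 12 of 22 genes were higher in liver and 1 in brain. Those furthest from 0 were Psmb8, a catalytic subunit of the immunoproteasome, from 1.03 to 3.26 (median 2.18) in liver to -0.93 to -0.30 (median -0.61) in brain, and the activator subunit Psme1 at -1.52 ± 0.13, while the other immunoproteasome subunit measured, Psmb10, differed by -0.31 ± 0.12. Cell cycle genes lay below the reference in both tissues, with list medians of -2.08 in brain and -1.83 in liver, and 5 of 24 were called higher in brain and 8 in liver, all within 1 unit.

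Where brain and liver use different members of an enzyme or transporter family, 6 of 26 chosen pairs had both members measured. In 3 of the 6 the brain form was higher in brain and the liver form higher in liver. Fabp7 and Fabp5 were both paired with the same Fabp1 value, so their pairs are not independent. For glucose uptake, Slc2a1 differed by 1.66 ± 0.14 and the liver transporter Slc2a2 by -4.59 ± 0.14. For fatty acid binding, Fabp7 of radial glia and Fabp5 differed by 1.22 ± 0.09 and 1.23 ± 0.17 against Fabp1 at -5.50 ± 0.22. For vesicle scission, neuronal Dnm1 differed by 3.94 ± 0.14 and the general form Dnm2 was not called (-0.20 ± 0.09). The cadherin pair gave -1.82 ± 0.19 for Cdh1 of epithelia and no call for Cdh2 (-0.12 ± 0.41). The connexins went otherwise: Gja1 of astrocytes was not called (-0.17 ± 0.10) and Gjb1, shared by hepatocytes and oligodendrocytes, was higher in brain by 0.62 ± 0.11.

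Genes of tissues that a dissection could carry along went both ways, as did all 6377 genes, with 2160 called higher in brain and 2272 in liver. Of 5 measured skeletal muscle genes 2 were called higher in brain, Acta1 at 1.66 ± 0.12 and Ckm at 0.43 ± 0.11, and 3 in liver, Tnnt3 at -3.46 ± 0.15, Myh1 at -0.37 ± 0.10 and Tnnc2 at -0.19 ± 0.05. The troponin gene Tnnt3 ran from 1.87 to 2.83 in liver and -2.07 to -0.75 in brain, with no overlap. Of 7 fat genes 3 were higher in brain and 3 in liver, with Cidea at 1.03 ± 0.17 and Plin4 at 0.67 ± 0.13 against Car3, also abundant in muscle, at -4.90 ± 0.12, and the fat hormone gene Adipoq was not called. All 5 pancreatic genes were higher in liver, led by the elastase Cela1, from -0.32 to 0.54 in brain and 0.55 to 2.55 in liver, and Cel at -0.94 ± 0.22. Of 4 erythroid genes 2 were higher in liver, and Alas2, of red cell precursors, ran from -0.27 to 0.69 in brain and 0.06 to 2.47 in liver. Hepatocyte markers (Alb, Apoa1 and Cps1) averaged -0.20 to 2.20 in brain, the highest in 8-week female 2, and 5.73 to 6.56 in liver. Neuron markers (Map2 and Nefl) averaged -0.03 to 0.25 in liver, at the reference level in all 12 samples. The part of these cells in the differences was not tested.

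Kidney placed the differences between the tissues that were compared. In a fit of all 36 adult B6 samples, brain lay above kidney for 1680 of 6377 genes (26.3%) and liver above kidney for 1303 (20.4%). Of the 92 genes at least 4 units higher in brain than in liver, 92 were also above kidney, by 4.34 in the median, and kidney itself lay above liver for 53 of them. Of the 95 genes at least 4 units higher in liver, 88 were above kidney, 2 were below it, and kidney lay above brain for 58. Serpina1b, Serpina1c, Serpinf2 and Hpd, though named for liver, were high in kidney as well: Hpd ran from 2.13 to 4.87 (median 3.56) there and Serpinf2 from 3.06 to 6.21 (median 4.31), between brain and liver. Among the 15 named brain genes kidney was closest to brain for Pfn2, from 0.55 to 1.83 (median 1.42) in kidney, and Gnb5, from -1.03 to 0.04 (median -0.36), and in both it lay above liver. Brain and liver share these kidney samples as a reference, so the 2 sets of differences are not independent.

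Most probes called between brain and liver at one age were called at the other, nearly all with the same sign. At 8 weeks 4864 probes (47.7%) were called, 24.4% of those tested higher in brain and 23.3% in liver. At 6 months 5954 (58.4%) were called, 25.4% higher in brain and 33% in liver. Of 4026 called at both, 4000 had one sign and 26 opposite signs. The difference itself changed with age for 510 probes (5%), 323 upward (3.17%) and 187 downward (1.83%). Each array holds 1 age, so age and any difference between the arrays of the 2 ages cannot be told apart. In 133 of these 510 (26.1%) both tissues averaged within 0.5 units of the reference at one age and at least 1 tissue lay more than 1 unit from it at the other, against 3.06% of all probes tested.

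Of the genes named for age, all but Slc25a4 lay near the reference in both tissues at 8 weeks. Slc22a17, a receptor for lipocalin in brain, ran from -0.11 to 0.32 in brain at 8 weeks and from 3.42 to 5.72 at 6 months, with liver at -0.02 to 0.52 and -0.07 to 0.14. The neuronal filament Ina ran from -0.08 to 0.30 and 3.57 to 4.97 in brain. Dkk3 is a secreted Wnt pathway protein and Slc4a10 a neuronal bicarbonate transporter. In brain they lay 3.76 ± 0.23 and 3.77 ± 0.11 higher at 6 months than at 8 weeks. Their brain-liver difference changed by 4.20 ± 0.32 and 3.89 ± 0.16. In liver, Rbp4, the retinol carrier of plasma, ran from 0.06 to 0.39 at 8 weeks and from 5.64 to 6.49 at 6 months, and C8g, of the membrane attack complex, from -0.51 to 0.07 and 4.09 to 5.70. Sdc1, a heparan sulfate proteoglycan of hepatocytes, ran from -3.81 to -1.68 in brain and from 0.46 to 1.63 in liver at 6 months, against -0.06 to 0.12 and -0.12 to 0.30 at 8 weeks. Slc25a4, the mitochondrial ADP/ATP carrier of muscle and brain, differed by 4.57 at 8 weeks and 1.18 at 6 months. At 6 months its 3 livers of set X ran from -2.63 to -1.96. Those of set Y gave 0.29 in female 3 and 0.37 in male 3, near the reference level, and -2.21 in male 2. Within a tissue, 1730 probes (17%) were called between ages in liver, 9.56% higher and 7.4% lower at 6 months, and 781 (7.66%) in brain, 3.57% higher and 4.09% lower. The liver count was 1138 without 6-month female liver 2 and 1108 without 6-month male liver 2.

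**Figure D3:**
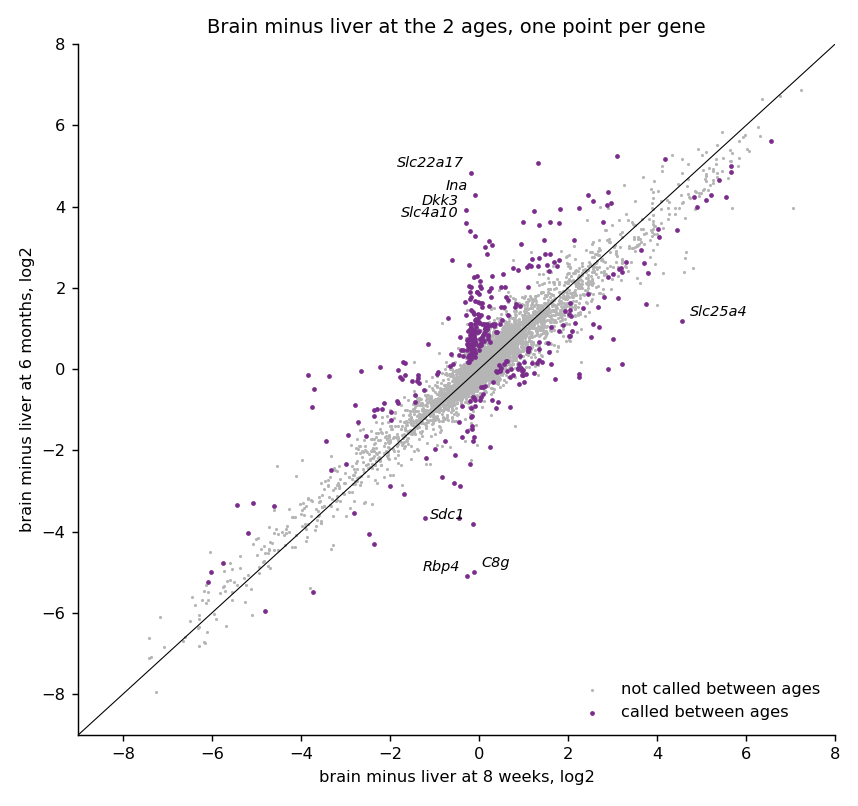
Brain minus liver in log2 units at 8 weeks (horizontal) and at 6 months (vertical), 1 point per gene, with genes whose difference was called between ages in purple and the line of equal difference. Most genes follow the line, and the named genes other than Slc25a4 lie near 0 at 8 weeks and between 3.60 and 5.09 units from 0 at 6 months.

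Sex changed the brain-liver difference for few genes. The fit called 19 probes for it (0.186%), 7 with brain minus liver higher in females (0.0687%) and 12 with it lower (0.118%). Within liver 48 probes were called between females and males (0.471%), 32 higher in females (0.314%) and 16 in males (0.157%). Within brain 1 probe was called (0.00981%), without a single gene symbol and 1.16 ± 0.14 units higher in males, and 0 were higher in females, where 173 had an unadjusted p below 0.05. The liver count was 80 without 8-week female liver 2 and 30 without 8-week male liver 2. Adult liver is known for sex-biased enzymes set by the pattern of growth hormone release.

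Male liver was higher for 4 enzymes with clear separation. Gstp1, a glutathione transferase, ran from 2.16 to 4.12 (median 3.04) in male liver and from -0.73 to 0.86 (median 0.23) in female liver, a female minus male difference of -2.87 ± 0.31 (limma adjusted p = 1.49e-05), while in brain it ran from -2.25 to -0.92 and -2.06 to -1.02. Elovl3, a fatty acid elongase, ran from 2.36 to 4.28 (median 3.74) in males and from 0.61 to 1.57 (median 0.93) in females. Cyp7b1, an oxysterol hydroxylase of bile acid synthesis, differed by -2.26 ± 0.26 and the P450 Cyp2d9 by -1.68 ± 0.13. In all 4 no male liver overlapped a female liver, and the change of the brain-liver difference was 1.67 to 2.98 units. Terf1, a telomere protein, was called in liver at -1.59 ± 0.25, but its 8-week liver values matched those of Gstp1 sample by sample (r = 0.996, n = 6). At 6 months the Terf1 liver values lay between -0.07 and 0.22 when Gstp1 ran from 0.13 to 4.12. The 8-week match also held in brain, at -2.28 to -0.955 for Terf1 and -2.25 to -0.92 for Gstp1, and in kidney. Whether the probes measure separate transcripts was not tested. Selenbp1, a selenium-binding protein, was higher in males by 1.31 units and its change of the brain-liver difference (1.24 ± 0.24) lost its call under 15 alternatives.

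Female liver was higher for another set. Cyp2c69, a P450, ran from 4.34 to 6.05 (median 5.29) in female liver and from 2.31 to 3.40 (median 2.68) in male liver, a difference of 2.39 ± 0.21, with brain at the reference level in both sexes. Cyp17a1, of steroid synthesis, ran from 2.62 to 3.60 (median 3.01) and 0.79 to 1.42 (median 1.14), and Rdh16f2, a retinol dehydrogenase, differed by 1.73 ± 0.17. Ccnd1, the G1 cyclin, ran from -2.38 to -0.02 (median -1.68) in females and from -4.27 to -3.28 (median -3.50) in males, below the reference in every liver. In brain it ran from -2.89 to -1.78 in females and -2.37 to -1.67 in males, and the sex change of the brain-liver difference was -2.37 log2 units. The metal-binding protein Mt1 differed by 1.70 ± 0.21, Psmb8 by 1.35 ± 0.13 and the pentraxin Apcs by 1.17 ± 0.15. Zic1, named above for its direction, ran from 0.84 to 2.62 (median 1.42) in female liver and from -0.35 to 0.28 (median 0.08) in male liver, with brain at -0.25 to 0.12 and -0.28 to 0.11.

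Of 9 measured genes of a list known to be male-higher in adult liver, 4 were called higher in males and 0 in females. Of 12 of the female-higher list, 2 were called higher in females (Cyp17a1 and the magnesium transporter gene Nipal1) and 0 in males. Over all genes 0.188% were called higher in males and 0.392% in females. Cux2, a factor of female liver, lay from -0.12 to 0.25 in liver, within the range of probes at the reference level. In set Y the livers at each age were female 3, male 2 and male 3, so only 1 female stood against the males. The female minus male differences there were -2.98 for Gstp1 and 3.12 for Cyp2c69.

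**Figure D4:**
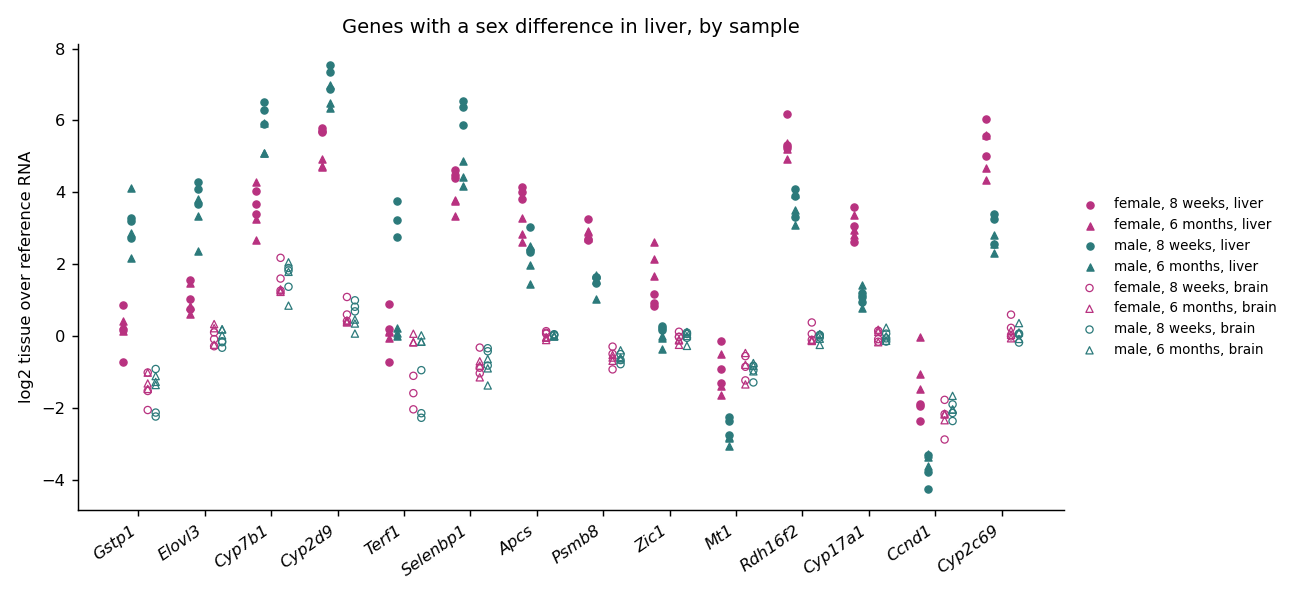
Level (log2 tissue over reference RNA) of the genes named for a sex difference in liver or of the brain-liver difference, in each liver (filled) and brain (open) sample, females in magenta and males in green, circles at 8 weeks and triangles at 6 months. Sexes separate in liver for Gstp1, Elovl3, Cyp7b1, Cyp2d9, Cyp17a1 and Cyp2c69 and mix in brain, and Terf1 separates at 8 weeks alone.

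Several probes set limits on the gene names. Of 663 genes with more than 1 probe tested, 330 had at least 2 called, and in 76 of these the probes were called in opposite directions. In the lists, Car3 gave -4.90 ± 0.12 on the probe used and -0.48 ± 0.07 on the other, and Psmb1 gave -0.28 ± 0.08 and 0.90 ± 0.18. Ccl6, a chemokine, and Ttr tracked each other over brains: Ttr ran from 1.07 to 7.03 and Ccl6 from 1.20 to 5.83, with r = 0.842 over 12 brain samples as a description. The lowest brain for both was 6-month female 2. At 6 months the 2 probes gave close values in every brain but male 2, where Ttr was 2.98 and Ccl6 4.18. At 8 weeks most brains lay further apart, as male 1 did with 7.03 and 4.71. Whether these probes measure separate transcripts was not tested.

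**Figure D5:**
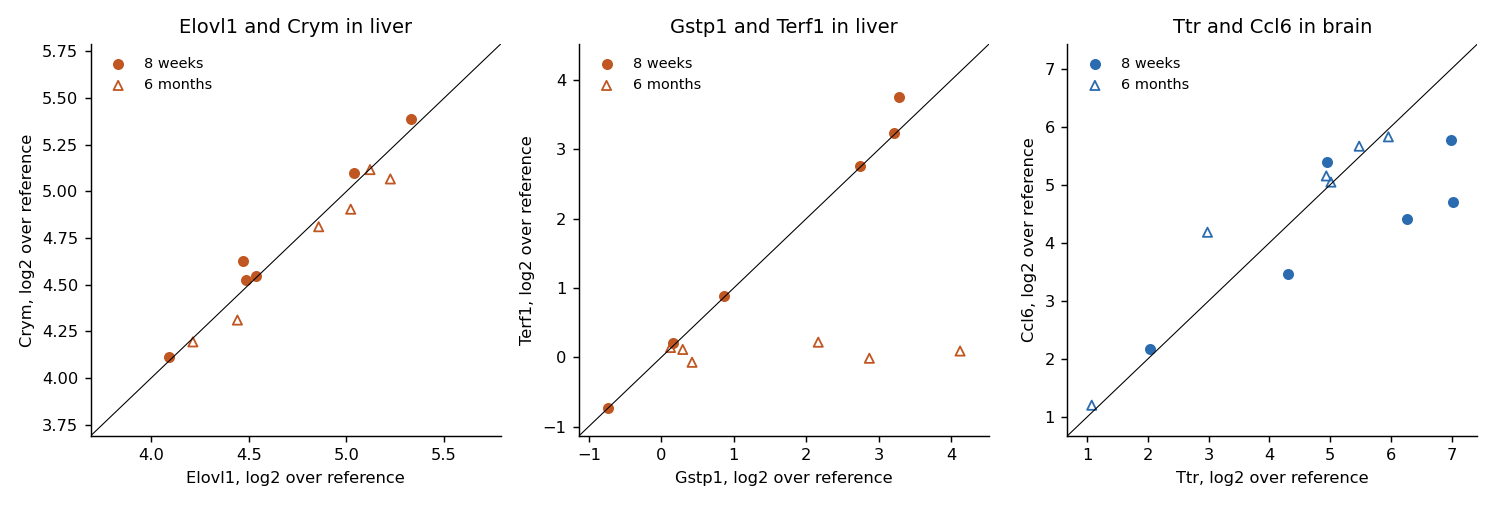
Levels (log2 tissue over reference RNA) of 3 pairs of differently named probes, 1 point per sample, filled at 8 weeks and open at 6 months, with the line of equal values: Elovl1 and Crym in liver, Gstp1 and Terf1 in liver, Ttr and Ccl6 in brain. Elovl1 and Crym lie on the line at both ages and Gstp1 and Terf1 at 8 weeks only. Ttr and Ccl6 lie near it at 6 months in every brain but male 2, and mostly off it at 8 weeks.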

How the data were processed

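The authors deposited 1 ratio per probe and array of tissue against Universal Mouse Reference RNA, for 12304 probes. The scanner software, background correction and normalization behind it are not given in the sources used here. Ratios of 0 (1925 in these arrays) were set to missing, and each ratio was inverted, taken to log2 and centred on the array's median. Within a sample, values were averaged over the arrays of each labelled dye and then over both dyes. Arrays therefore weigh unequally where a sample has unequal numbers per dye label. A probe without a value in either dye was set to missing in that sample. Probes with values in at least 2 samples of each of the 8 groups were tested (10196) with limma 3.58.1 in R 4.3.3 (lmFit, eBayes, Benjamini-Hochberg), on a mean per group of age, tissue and sex, and the script was tested on simulated data. An added alternative compares sample sets that the data themselves showed. Of the probes, 8681 had 1 gene symbol, 510 several and 3113 none, and 8585 symbols matched RefSeq; each gene was represented by the probe with most values, then the lowest ID (6377 genes).

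The genes named are the 15 highest and 15 lowest called with one sign in all 4 age and sex groups, the 4 highest and 4 lowest for age, up to 8 each way for sex and up to 5 each way for sex within a tissue, and in each list up to 3 each way and members against the rest. Any further list member was picked with its values in view. The samples and lists were chosen with earlier results of these data known. Alternatives changed the centring, scaling, dye, probe filter, block, fit level and samples. Arrays give no counting depth, and their number limits the precision. Summaries and figures used Python 3.11.15, pandas 2.3.3 and matplotlib 3.10.9.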

Additional observations from a re-analysis of the deposited data

Results flagged for a closer look

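The brain-liver difference changed between 8 weeks and 6 months for 510 probes by limma's test of the interaction, at an adjusted p below 0.05. As 6 months minus 8 weeks, the change was 5.02 for Slc22a17, 4.36 for Ina, 4.20 for Dkk3 and 3.89 for Slc4a10, and -4.90 for C8g, -4.82 for Rbp4, -3.68 for Sdc1 and -3.38 for Slc25a4, all in log2 units. Age and the arrays used at each age cannot be told apart for these.

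Between sexes the brain-liver difference changed for 19 probes by the same kind of test. As female minus male, the change was 2.98 for Gstp1, 2.59 for Elovl3, 2.10 for Cyp7b1, 1.67 for Cyp2d9 and 1.24 for Selenbp1. It was -2.37 for Ccnd1, -2.29 for Cyp2c69, -1.95 for Cyp17a1 and -1.69 for Rdh16f2, and -1.64 for Mt1, -1.58 for Zic1, -1.34 for Psmb8 and -1.17 for Apcs.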

How the results depend on the processing

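All 30 genes named between brain and liver kept their call and direction under every alternative run, and no named value reversed. Of the 8 genes named for age, Slc25a4 lost its call within set Y, and none of the 13 genes named for the sex change of the difference, nor of the 10 named between sexes in liver, kept a call under every alternative (50 of 494 and 14 of 370 values lost theirs). List counts moved by over 1.5 times in 39 of 1520 values, in 13 of 40 lists. Within set Y, limma called 3591 probes between brain and liver, 2470 at 8 weeks, 2569 at 6 months, 239 for the age change, 0 for the sex change, 1 between sexes in liver, 0 in brain, 321 between ages in liver and 414 in brain. Within set X it called 10 for the sex change, 29 and 0 between sexes in liver and brain, and 689 between ages in liver. Cy3 arrays alone gave 3025 at 6 months, 5 for the sex change, 21 between sexes in liver, and 807 and 1758 between ages in liver and brain. Cy5 arrays alone gave 212 for the age change, 10 for the sex change, 26 and 0 between sexes in liver and brain, and 890 and 3740 between ages. The array-level fit with a dye term gave 838 for the age change, 74 for the sex change, 162 and 7 between sexes in liver and brain, and 1225 between ages in brain. At an unadjusted p below 0.05 the counts of 0 were 852 for the sex change and 413 in brain within set Y, and in brain 416 within set X and 188 on Cy5 arrays. Scaling, and adding kidney, each gave 2 between sexes in brain. At 8 weeks 20 of 24 brain and 7 of 24 liver arrays carry the pattern of the other dye than their label. The Cy3 and Cy5 subsets may therefore mix dyes between ages. The pattern came from the 6-month labels, so the 0 arrays against label at 6 months are no test of them. The set and dye alternatives hold fewer arrays, and otherwise the cause was not tested. Leaving out 1 sample at a time gave 6653 to 7006 between brain and liver, 4366 to 5127 at 8 weeks, 5297 to 6076 at 6 months, 411 to 571 for the age change, 17 to 25 for the sex change, 30 to 80 between sexes in liver, 1 to 1 in brain, 1108 to 1984 between ages in liver and 611 to 917 in brain. Same-numbered brain and liver samples correlated at r over 0.1 in 10 of 12 pairs (median 0.181, lowest -0.127), and 10 of 12 correlated best with their own number, which is a hint of pairing. The pairs that failed were male 2 at 6 months (r = 0.053) and male 2 at 8 weeks (r = -0.127). They were the only pairs with brain in set X and liver in set Y. Whether the correlations come from shared animals or from the sample sets was not tested. The numbers were not taken as pairing because that required every pair to pass and the labels tie them to no shared animal. With the replicate block 6881 probes were called between brain and liver, 4911 at 8 weeks, 5778 at 6 months, 431 for the age change and 16 for the sex change, and among the named genes Selenbp1 and Apcs lost their call for the sex change. The filter of 1 value per group kept the same 10196 probes. Values near the reference level may lack signal, since no background measure was used.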
